A study of Mus musculus with 24 samples.

Results

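The response to heat that remains without heat shock transcription factor 1 (HSF1) was followed in the quadriceps femoris muscle of Hsf1-/- mice, homozygous knockouts of the gene in every tissue. The libraries were chosen by their labels alone: 2 Hsf1-/- heat shock mice and 2 Hsf1-/- control heat shock mice, which are 4 of the 24 mice sequenced. All 4 were 10 weeks old and had a CBA x C57BL/6 F1 background. Under isoflurane, mice were wrapped in a heating pad up to the head. Core temperature was then held at 41.5 °C for 15 min after warming, or at 36.9 °C for 21 min in the controls, and the muscle was taken 4 h later. Beside them stand 2 heat shock and 2 control mice of the wild type, and the same numbers of R6/2 mice, a transgenic model of Huntington's disease, all of this background and 12 weeks old. The other 12 mice of the study received an HSP90 inhibitor or its vehicle and entered the fit only to estimate the spread between mice.

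Heat unfolds proteins, and cells answer with heat shock proteins (HSPs), chaperones that refold client proteins or hold them until they can be degraded. HSF1 is held inactive in unstressed cells, becomes a trimer when proteins misfold, and binds heat shock elements, inverted repeats of the unit GAA in the promoters of chaperone genes. Heating a whole animal also raises circulating stress hormones, sympathetic tone and cytokines, which reach muscle through receptors and transcription factors that do not need HSF1. The comparison asks which transcripts moved in the heated muscle when HSF1 was not there to move them.

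The authors had mapped paired reads to mm9 and counted them per gene, for 18669 genes. Those with 2 or more counts in 10 or more of the 24 libraries, 13754 genes, were tested with edgeR's quasi-likelihood test, and a gene was called when its Benjamini-Hochberg adjusted p was below 0.05. Levels are given as CPM, counts brought to the same effective library total by TMM scaling. The 4 Hsf1-/- libraries held 23883708 to 30540627 counts, within the 22450177 to 46599238 of the series. With 2 mice a side an exact two-sided permutation test cannot give a p below 0.333, so every p rests on a spread pooled over the 12 groups, with 12 residual degrees of freedom.

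Hsf1 itself (gene identifier 15499; chromosome 15 of mm9, 76307865 to 76331402) had 680 and 488 counts in the Hsf1-/- controls and 709 and 729 after heat shock, against 1352 to 1740 in the 4 wild type mice. Between the control groups this was a log2 difference of -1.31, Hsf1-/- minus wild type (edgeR adjusted p = 4.2e-05). The transcript was lower, not absent, in all 4 knockouts, and counts over the whole gene do not show whether the deleted stretch, which the sources used here do not give, was transcribed. The 4 genes of the Y chromosome measured (Ddx3y, Eif2s3y, Uty, Kdm5d) summed to 186 to 229.9 CPM in the Hsf1-/- mice. They summed to 0 in the 4 wild type mice and to 0 to 0.0881 CPM in the 4 R6/2 mice. Genotype, sex and age therefore cannot be told apart wherever Hsf1-/- mice are set beside wild type or R6/2 mice. They do not differ between the Hsf1-/- heat shock and control mice. The 10 myofibre markers, creatine kinase (Ckm) and skeletal actin (Acta1) among them, summed to 223800 to 244300 CPM in the 4 Hsf1-/- libraries and were not at 0 in any. They summed to 200800 to 245700 CPM in the 4 wild type mice, but to 47150 to 85430 CPM in the 4 R6/2 mice. The R6/2 libraries set beside the others thus differed in make-up. The effect of this on the R6/2 fold changes was not tested.

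Promoters of 5 genes that the results turn on are shown from the RefSeq promoter table (GRCm38.p6), each as the 250 bases before the start of the gene, 5′ to 3′ on the gene's own strand. Hspa1a and Hspe1 encode an inducible HSP70 and the mitochondrial co-chaperonin HSP10. Ppargc1a and Nr4a3 encode a coactivator of mitochondrial genes and an orphan nuclear receptor, and Mt1 encodes a metallothionein. Capitals mark letters that match a heat shock element (2 units, GAANNTTC or TTCNNGAA, or 3 alternating units) in the first pair and a glucocorticoid response element (GNACANNNTGTNC) in Mt1.
Hspa1a (chr17:34972157-34972406, - strand): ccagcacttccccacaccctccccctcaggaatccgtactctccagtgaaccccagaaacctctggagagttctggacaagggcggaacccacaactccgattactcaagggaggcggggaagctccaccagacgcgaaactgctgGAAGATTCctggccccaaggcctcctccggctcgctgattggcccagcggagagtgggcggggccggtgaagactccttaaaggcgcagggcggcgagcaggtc
Hspe1 (chr1:55087898-55088147, + strand): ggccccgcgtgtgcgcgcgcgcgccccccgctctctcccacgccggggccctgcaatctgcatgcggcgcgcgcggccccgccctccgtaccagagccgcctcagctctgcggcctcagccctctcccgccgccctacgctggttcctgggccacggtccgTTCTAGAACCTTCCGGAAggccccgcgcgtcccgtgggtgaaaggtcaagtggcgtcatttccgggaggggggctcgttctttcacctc
Ppargc1a (chr5:51567726-51567975, - strand): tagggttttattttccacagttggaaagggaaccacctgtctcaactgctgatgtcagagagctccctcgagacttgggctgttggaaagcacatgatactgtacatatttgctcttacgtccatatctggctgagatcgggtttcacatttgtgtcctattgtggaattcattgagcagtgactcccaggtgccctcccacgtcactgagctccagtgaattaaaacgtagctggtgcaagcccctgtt
Nr4a3 (chr4:48045055-48045304, + strand): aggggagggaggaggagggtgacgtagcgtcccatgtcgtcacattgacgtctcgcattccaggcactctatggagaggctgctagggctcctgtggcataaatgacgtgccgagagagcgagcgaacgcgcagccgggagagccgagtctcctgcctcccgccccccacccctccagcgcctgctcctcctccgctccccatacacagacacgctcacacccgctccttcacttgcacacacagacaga
Mt1 (chr8:94178839-94179088, + strand): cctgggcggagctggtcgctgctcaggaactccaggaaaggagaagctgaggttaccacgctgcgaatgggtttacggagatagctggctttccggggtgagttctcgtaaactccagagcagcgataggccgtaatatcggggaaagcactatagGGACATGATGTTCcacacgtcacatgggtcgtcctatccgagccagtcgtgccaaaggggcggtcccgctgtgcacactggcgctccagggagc

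The Hspa1a promoter held 1 element of 2 units, 104 to 97 bases before the start, and the Hspe1 promoter a run of units from 89 to 72 bases before it. Ppargc1a and Nr4a3 had no exact match in this window to the motifs searched, which also included the cyclic AMP response element TGACGTCA and the E-box CACGTG. Partial matches to these strings were not searched. The Mt1 match lay 94 to 82 bases before the start. Both strands were read and overlapping matches were counted once per gene. Among the 10838 tested genes with a promoter in the table, 12.1% held the 2-unit element, 0.489% the 3-unit element and 0.351% the glucocorticoid element. Of the 22 genes whose response was called different from wild type (0.16% of those tested, described further on), 7 of the 20 with a promoter held the 2-unit element (35.0%) and 2 the 3-unit element. In wild type 2.06% of the tested genes were called after heat shock. Of those called higher there whose difference between genotypes was not called, 24 of 153 (15.7%) held the 2-unit element, 0 the 3-unit element and 8 (5.23%) the glucocorticoid element. A match is a string of letters in a short window and does not show binding.

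A single gene rose in Hsf1-/- muscle at the adjusted threshold, Ppargc1a, which encodes PGC-1alpha, the coactivator that turns on mitochondrial biogenesis and oxidative genes in exercised or cold-exposed muscle. Calls were made for 1 of 13754 genes (0.00727%) in this comparison. Ppargc1a (19017; chromosome 5 of mm9, 51845488 to 51958964) had 31.7 and 39.4 CPM in the controls and 441 and 178 CPM after heat shock. Both heated mice lay above both controls, the first much higher than the second. The mean went from 35.6 ± 5.40 to 309.7 ± 186 CPM (SD, n = 2). That is a log2 fold change of 3.12, or 8.71-fold (standard error 0.421, 95% interval 2.23 to 4.01, edgeR adjusted p = 0.016). In wild type muscle Ppargc1a rose as well, by 2.05 (adjusted p = 0.013), and in R6/2 muscle the value was 1.03 (adjusted p = 0.45). The difference between the Hsf1-/- and wild type responses was 1.08 (standard error 0.554, edgeR adjusted p = 1). Without control 1, control 2 or heat shock 1 of the Hsf1-/- mice its log2 fold change was 2.98, 3.29 and 2.33. These fits leave 1 mouse in a group, and Ppargc1a was not called in them.

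The count of 1 lies beside a crowd of genes just past the threshold. In edgeR's test 31 genes had an adjusted p from 0.05 to 0.06, and 55 were below 0.1, 44 higher and 11 lower after heat shock. Without adjustment 684 genes were higher (4.97% of those tested) and 527 lower (3.83%) at a p below 0.05. DESeq2, run here as an alternative, called 161 genes on the same 24 libraries (1.17%), 126 higher and 35 lower. In 158 of them the heated and control mice did not overlap, which follows largely from their selection on these same mice. Among all tested genes both heated mice lay above both controls in 20.8% and below both in 21.6%. Leaving out either control left 0 calls in edgeR, leaving out heat shock 2 gave 28 and leaving out heat shock 1 gave 1. Genes named from here on as near the threshold were chosen after their values were seen. Where a DESeq2 adjusted p is given, it is from the 24 libraries.

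Nr4a3, a nuclear receptor induced in muscle by beta-adrenergic signals and exercise, had 8.12 and 6.52 CPM in the controls and 142 and 63.0 after heat shock. The heated mice again stood clear of the controls and the first was higher. The log2 fold change was 3.801 (standard error 0.6, adjusted p = 0.051 in edgeR and 3.8e-06 in DESeq2), beside 3.09 in wild type (edgeR adjusted p = 0.01) and 2.03 in R6/2 mice. Its relative Nr4a1 had 215 and 271 CPM in the controls and 553 and 489 after heat (log2 fold change 1.10; adjusted p = 0.3 in edgeR, 0.088 in DESeq2). Acer2, an alkaline ceramidase of the Golgi, and Usp54, a ubiquitin peptidase family member, had heated mice that lay close together. Acer2 had 14.1 and 16.5 CPM in the controls against 55.4 and 57.8, and Usp54 had 19.5 and 18.9 against 48.8 and 47.2. Their log2 fold changes of 1.89 and 1.33 were close to those in wild type mice, 2.12 and 1.70, where both were called. Their adjusted p was 0.051 and 0.054 in edgeR and 8.9e-06 and 6e-05 in DESeq2.

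Other genes near the threshold had varied roles. Il4ra, a chain of the interleukin-4 receptor, had 8.401 and 11.3 CPM in the controls and 50.2 and 34.7 after heat (log2 fold change 2.11; adjusted p = 0.054 in edgeR, 4.1e-05 in DESeq2). Sox4, a transcription factor of progenitor cells, had 6.25 and 4.16 CPM against 31.6 and 57.4, a log2 fold change of 3.09 beside 5.27 in wild type (adjusted p = 0.054 in edgeR, 0.00014 in DESeq2). Tmem252, a small membrane protein, had 0.756 and 1.09 CPM against 14.7 and 19.4, a log2 fold change of 4.21 beside 4.69 in wild type and 4.27 in R6/2 mice (adjusted p = 0.058 in edgeR, 0.00044 in DESeq2). These genes had no overlap between heated and control mice and a like direction in all 3 genotypes. Sphk1, which makes sphingosine-1-phosphate, had 0.119 and 0.236 CPM against 3.11 and 1.19 (log2 fold change 3.60; adjusted p = 0.065 in edgeR, 0.002 in DESeq2). Lower after heat shock were Scai, a repressor of the SRF cofactor MRTF (12.5 and 12.3 CPM against 5.33 and 6.16; log2 fold change -1.11; adjusted p = 0.051 in edgeR, 4.4e-05 in DESeq2) and Arhgap18, a GTPase-activating protein (-1.21; 0.058 and 0.0011). Stmn2 and the caveolin Cav2 were lower as well, at -1.13 and -0.69 (adjusted p = 0.058 and 0.058 in edgeR, 0.0041 and 0.002 in DESeq2). In Scai and Arhgap18 the 2 mice of a group lay close together and far from the other group, and both genes fell in wild type muscle, by 0.84 and 1.11 on the log2 scale.

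**Figure D1:**
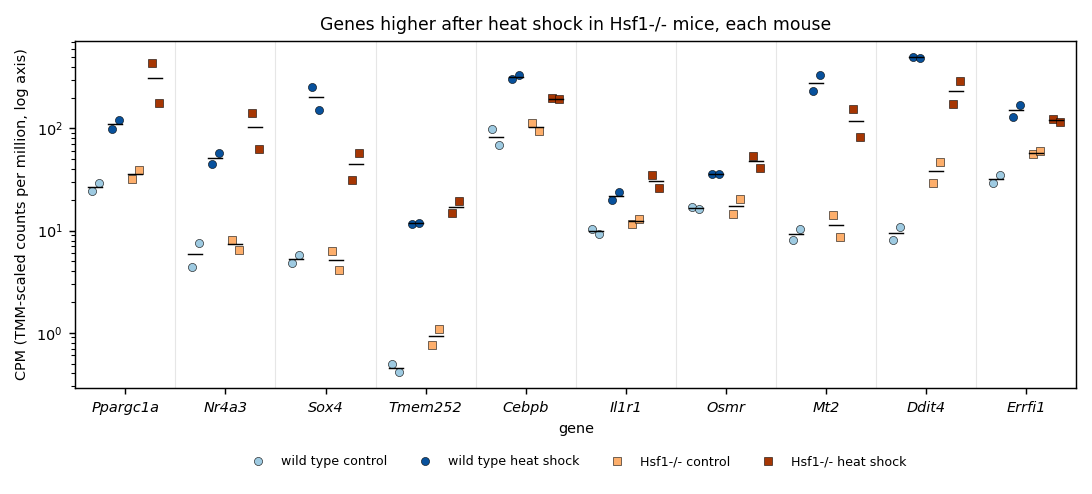
CPM of 10 genes in each mouse (log axis), for wild type controls and heat shock (circles) and Hsf1-/- controls and heat shock (squares), with group means as bars. Both heated Hsf1-/- mice lie above both Hsf1-/- controls in every gene drawn, and Ppargc1a reaches 441 CPM in heat shock mouse 1.

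No chaperone gene was called in Hsf1-/- muscle. Across 6 lists of HSP and chaperone genes, 78 members were tested, and 0 were called by edgeR and 0 by DESeq2 on 24 libraries. Of all tested genes 0.00727% and 1.17% were called, so the absence of calls does not by itself set the chaperones apart. An unadjusted p below 0.05 in edgeR was found for 3 of the 78, beside 4.97% of all genes higher and 3.83% lower. Their log2 fold changes ran from -0.388 to 1.33 with a median of 0.014, beside 0.003 for all tested genes, and 40 of 78 were higher. In wild type mice the same 78 genes had a median of 0.288, and 21 of them were called, all higher.

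Hspa1a (193740; chromosome 17 of mm9, 35106144 to 35109069) and Hspa1b (15511; chromosome 17, 35093381 to 35096183) encode near-identical inducible HSP70 proteins. They are copies of each other, so the division of reads between them is uncertain. Hspa1a had 3.34 and 2.13 CPM in the Hsf1-/- controls and 3.00 and 1.91 after heat shock, where heated wild type mice had 961 and 1063. Hspa1b had 1.27 and 1.18 CPM in the controls and 1.21 and 0.914 after heat, where heated wild type mice had 853 and 858. In the knockouts the heated and control mice overlapped in both genes, all at a few CPM or less. The log2 fold changes were -0.17 (95% interval -1.49 to 1.15) and -0.21 (-1.68 to 1.26), beside 7.11 and 7.97 in wild type and 4.15 and 4.39 in R6/2 mice. Hsp90aa1, the inducible cytosolic HSP90, had 8.20 and 8.65 CPM against 10.0 and 8.07 (0.10, interval -0.43 to 0.63; wild type 3.89). It too has near-identical copies, 2 in number.

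The cofactors of HSP70 and HSP90 had values near 0 as well. Dnaja1, a J-domain protein that delivers clients to HSP70, had 2.27 and 2.17 CPM in the controls and 1.79 and 1.83 after heat (-0.30, wild type 2.78), and its gene overlaps Smu1. Bag3, which couples HSP70 to autophagy in muscle, had 207 and 205 CPM against 256 and 227 (0.23, wild type 2.19). Hsph1, an HSP110 nucleotide exchange factor, had 54.0 and 65.4 CPM against 44.7 and 60.7 (-0.18, wild type 1.74). Bag3 had no overlap between groups but a difference small beside that in wild type, and Hsph1 overlapped. Unc45b, the myosin chaperone, had 397 and 425 CPM against 403 and 448 (0.05, wild type 1.30). Hspd1 and Hspe1, the mitochondrial chaperonin pair whose genes overlap, gave -0.28 and -0.06, beside 1.24 and 1.34 in wild type. Dnajb1, another J-domain protein, had 8.56 and 6.52 CPM against 8.83 and 8.70 (0.21, wild type 2.18). Hspb1, the small HSP27, had 17.1 and 14.8 CPM against 27.2 and 16.4, with heat shock 1 above the other 3 mice. Its value was 0.45 (interval -0.41 to 1.30), beside 2.85 in wild type.

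Hspa8, the constitutive HSC70, had the largest log2 fold change on the chaperone lists. It had 23.7 and 21.5 CPM in the controls, 21.8 in heat shock 1 and 91.9 in heat shock 2. The log2 fold change was 1.33 (edgeR adjusted p = 0.75), beside 2.57 in wild type (edgeR adjusted p = 0.16). Only heat shock 2 stood apart, and Hspa8 has 3 near-identical copies in the genome. Heat shock 2 was also the only 1 of the 4 with Rpl30, a ribosomal protein gene with 7 such copies, above 1 CPM (16.3, beside 0, 0.0398 and 0.142). The haemoglobin gene Hba-a2 had 12.5, 10.6 and 11.8 CPM in the other mice and 53.7 in heat shock 2. Whether these share a source was not tested.

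**Figure D2:**
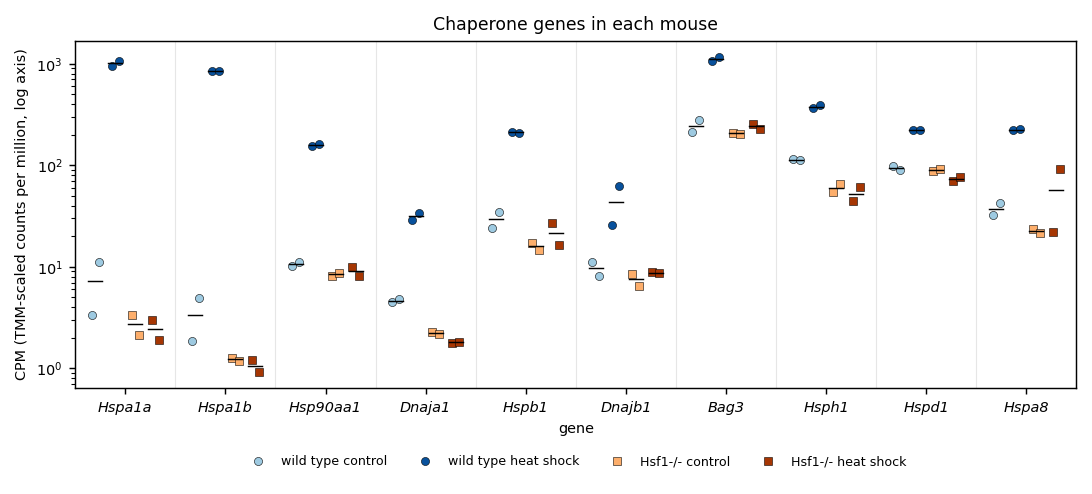
CPM of 10 chaperone genes in each mouse (log axis), drawn as wild type circles and Hsf1-/- squares, paler for controls and darker for heat shock, with group means as bars. Heated wild type mice stand far above their controls in several genes, for example at 961 and 1063 CPM for Hspa1a. The wild type rise of Hspa8 was not called. Heated Hsf1-/- mice stay near the level of theirs, except for 1 mouse in Hspa8 and, by less, 1 mouse in Hspb1.

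The difference between genotypes was tested itself, as the Hsf1-/- response minus the wild type response. It was called for 22 genes (0.16% of those tested), all with the smaller response in Hsf1-/- mice, and 511 genes had an unadjusted p below 0.05. All 22 rose in wild type, by 1.18 to 7.97 on the log2 scale, with a median of 1.70. In Hsf1-/- mice they lay between -0.545 and 0.271, with a median of -0.056. For 22 of 22 the 95% interval of the Hsf1-/- value lay below the wild type value, and the highest upper bound was 1.26, that of Hspa1b. The 22 were selected on this difference in the same mice. The gap between their values in the 2 genotypes follows largely from that selection and is no further support. Of the 22, 14 were on the chaperone lists. They were 14 of the 21 chaperone genes called higher in wild type. The rest, Hspb1 and Dnajb1 among them, were not called for the difference. It was -2.40 for Hspb1 and -1.97 for Dnajb1 (edgeR adjusted p = 0.22 and 0.15). The differences were -7.28 for Hspa1a, -8.18 for Hspa1b, -3.79 for Hsp90aa1, -3.08 for Dnaja1, -1.96 for Bag3 and -1.92 for Hsph1.

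The 8 genes called for this difference outside the chaperone lists were Nle1, Scamp3, Mboat7, Tubgcp4, Slc5a3, Tmc4, Cnpy4 and Aox1. Nle1, a factor of ribosome assembly, had 6.13 and 6.62 CPM in the Hsf1-/- controls and 7.31 and 8.07 after heat (0.27), and rose by 2.72 in wild type. Slc5a3, the myo-inositol transporter, gave -0.05 beside 1.18, and Tubgcp4, of the gamma-tubulin ring, gave 0.04 beside 1.81. Tmc4, a member of a channel-like family, had 0.597 and 0.851 CPM against 0.623 and 0.397, and rose by 3.85 in wild type. Nle1, Mboat7, Tubgcp4, Slc5a3 and Tmc4 overlap other genes in the annotation, so reads may be shared with the neighbour. The count of 22 was 11 or 12 without either Hsf1-/- control, 13 and 16 without heat shock 1 or 2, 10 and 12 without either wild type control, and 16 and 13 without wild type heat shock 1 or 2.

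Most genes called in wild type and not on the chaperone lists had values of the same sign in Hsf1-/- mice, and smaller ones. In wild type 283 genes were called (2.06%), 219 higher and 64 lower. The 2 genotypes share no libraries, but the spread behind the wild type calls is pooled over all 12 groups, the Hsf1-/- mice included, so genes with close Hsf1-/- mice are called more readily in wild type. Of the 219, 190 were higher in heated Hsf1-/- mice (86.8%, beside 50.4% of all tested genes), and in 163 both heated mice lay above both controls, beside 20.8% of all genes. Their median was 0.696 in Hsf1-/-, 0.684 in R6/2 and 1.51 in wild type. Of the 64, 64 were lower (beside 49.3% of all genes), with medians of -0.514 and -1.12 in Hsf1-/- and wild type. These genes were selected on their wild type values, which by itself favours larger values there.

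The 219 divided in part by role. The 21 on chaperone lists had a median of -0.035 in Hsf1-/- against 1.34 in wild type, and 10 of the 21 were higher. The other 198 had a median of 0.797 against 1.53, and 180 were higher (90.9%). Yet 8 of the 198 were called for the difference between genotypes, and some others lay near 0 in Hsf1-/-. Igdcc3, Aldh1b1 and Slc30a2 gave 0.005, -0.003 and 0.247 in Hsf1-/- against 5.06, 2.62 and 3.67 in wild type. The Hsf1-/- value was the larger in 14 of these 198 and in 0 of the 21. Read the other way, the 684 genes with an unadjusted p below 0.05 and higher in Hsf1-/- had the same sign in wild type in 585 cases (85.5%, beside 47.7% of all genes), with medians of 0.843 and 0.504. The 527 lower ones had it in 456 cases (86.5%, beside 52% of all genes). Across all 13754 genes, Spearman's rank correlation of the 2 sets of fold changes was 0.331, and over the 283 called in wild type it was 0.714; genes are not independent replicates, and no p is given.

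**Figure D3:**
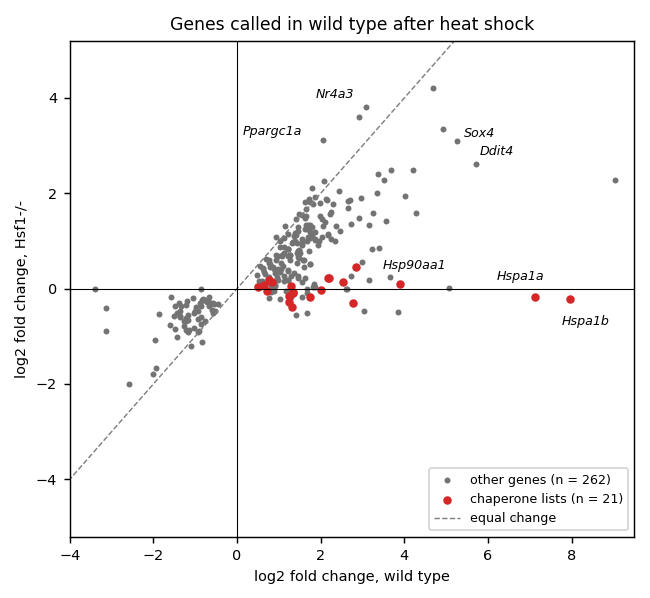
Log2 fold change after heat shock of the 283 genes called in wild type, in wild type (horizontal) and in Hsf1-/- mice (vertical); the dashed line marks equal change. The 21 genes of the chaperone lists lie along 0 in Hsf1-/- mice, and most of the other 262 lie between 0 and the line.

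Genes that answer to glucocorticoids, the adrenal steroids released under stress, had the largest median among the lists with at least 5 tested genes. Of 21 tested members, 21 were higher in heated Hsf1-/- mice, 12 of them at an unadjusted p below 0.05 (4.97% of all tested genes were), 4 were called by DESeq2 (1.17% of all) and 0 by edgeR. In 18 of the 21 both heated mice lay above both controls (20.8% of all). The same shares of all genes are the background for the lists that follow. Those lists share members with the glucocorticoid list, among them Mt1, Mt2, Cebpd, Errfi1, Map3k6, Klf15, Ddit4, Hif3a, Tsc22d3, Per1 and Cdkn1a. A like direction in such lists therefore rests in part on the same genes. All the lists, this one included, were chosen with earlier results of these data known. Their directions are therefore a description and not independent evidence. The median was 1.04 (1.02 and 0.978 for heat shock 1 and 2 each against the controls), beside 2.25 in wild type, where 13 were called, and 0.919 in R6/2 mice. The Hsf1-/- value was the smaller in 20 of 21, but none of these differences was called.

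The metallothioneins Mt1 and Mt2 bind zinc and are induced by glucocorticoids and metals. Mt2 had 14.3 and 8.65 CPM in the controls and 154 and 82.2 after heat (log2 fold change 3.36; adjusted p = 0.19 in edgeR, 0.046 in DESeq2), beside 4.93 in wild type. Mt1 had 21.3 and 14.9 CPM against 119 and 84.8 (2.49, beside 4.20; adjusted p = 0.19 in edgeR, 0.063 in DESeq2). In both genes the heated mice stood far above the controls. Of the 7 metallothionein and zinc genes tested, 6 were higher and 2 had an unadjusted p below 0.05, Mt1 and Mt2 themselves. Errfi1, an inhibitor of the EGF receptor, had 55.7 and 60.5 CPM against 125 and 115 (1.04; adjusted p = 0.18 in edgeR, 0.025 in DESeq2).

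Ddit4, which restrains mTORC1, had 29.5 and 46.7 CPM in the controls and 172 and 292 after heat (2.61; adjusted p = 0.27 in edgeR, 0.14 in DESeq2). Wild type mice went from 8.14 and 10.9 to 506 and 492 CPM, so that the Hsf1-/- controls started above the wild type controls and the heated Hsf1-/- mice ended below the heated wild type mice. Cebpd, a C/EBP factor of the acute phase, had 48.7 and 68.2 CPM against 161 and 154 (1.43; adjusted p = 0.39 in edgeR, 0.3 in DESeq2; wild type 3.55). Cebpb, its relative, had 114 and 94.9 against 197 and 195 (0.91, edgeR adjusted p = 0.086, DESeq2 0.0033; wild type 1.93). Its gene overlaps Tmem189. Of the 5 C/EBP genes tested, 3 were higher and 2 had an unadjusted p below 0.05. Klf15, which drives amino acid breakdown in fasted muscle, gave 0.76, Fam107a gave 1.80 and Cdkn1a, the p21 cell cycle inhibitor, gave 2.04. Nr3c1, the glucocorticoid receptor, had 231 and 206 CPM against 236 and 215, a value of 0.05.

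Genes of fuel use parted from Ppargc1a. Of 18 tested on the list of PGC-1, NR4A and fuel genes, 11 were higher, 3 of them and 1 lower gene at an unadjusted p below 0.05, and the median was 0.111, beside 0.599 in wild type with 5 called. Pdk4, which keeps pyruvate out of the citric acid cycle when fat is burned, had 2478 and 2383 CPM in the Hsf1-/- controls and 4180 and 2936 after heat (0.55, edgeR adjusted p = 0.8). Wild type controls had 278 and 378 CPM and heated wild type mice 3267 and 1892 (2.98). Ucp3, a mitochondrial carrier of muscle, had 550 and 592 CPM against 575 and 716 in Hsf1-/- (0.18), and 125 and 136 against 1221 and 1097 in wild type (3.15). In both genes the Hsf1-/- controls were already higher than the wild type controls, by 2.89 and 2.13 on the log2 scale (edgeR adjusted p = 0.0069 and 0.023). The difference in response, -2.43 and -2.97, was not called (adjusted p = 0.3 and 0.081). Ppargc1b, the paralogue of PGC-1alpha, had 22.3 and 26.8 CPM against 15.1 and 15.1 (-0.70, edgeR adjusted p = 0.34).

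Immediate early genes, transcription factors switched on within minutes of a signal, showed how far the 2 heated Hsf1-/- mice differed. Of 19 tested, 16 were higher, 10 at an unadjusted p below 0.05, 5 were called by DESeq2 and 0 by edgeR. The median was 0.797 over both mice, 1.14 for heat shock 1 and 0.365 for heat shock 2, beside 0.8 in wild type and 0.172 in R6/2. Egr1, a zinc finger factor, had 11.2 and 5.96 CPM in the controls, 276 in heat shock 1 and 11.2 in heat shock 2. Atf3, a stress-induced bZIP factor, had 19.7 and 7.33 CPM, then 533 and 32.1. Fos, a subunit of AP-1, had 9.64 and 6.81 CPM, then 94.8 and 8.15. In all these genes heat shock 1 was far above the other 3 mice, and in Egr1 and Fos heat shock 2 lay within or at the edge of the controls. Without heat shock 1 the value for Fos turned from 2.64 to -0.02.

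Other members were higher in both heated mice. Jun had 139 and 130 CPM in the controls and 403 and 213 after heat (1.20; adjusted p = 0.14 in edgeR, 0.009 in DESeq2). Maff, a small Maf factor, had 7.45 and 3.73 CPM against 27.4 and 14.6 (1.90; wild type 2.97, the only member called there). Btg2, an antiproliferative target of p53 and growth factors, had 32.9 and 36.5 CPM against 169 and 61.7 (1.73). Csrnp1, an AXIN-induced nuclear protein chosen after its values were seen, had 7.80 and 6.90 CPM against 34.9 and 18.6 (1.86; adjusted p = 0.07 in edgeR, 0.00055 in DESeq2). In each of these heat shock 1 was again the higher mouse.

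Receptors of inflammatory cytokines and feedback inhibitors of NF-kB had the next largest median. Of 22 tested, 19 were higher, and 10 higher and 2 lower genes had an unadjusted p below 0.05. DESeq2 called 5 higher and 1 lower, and edgeR 0. The median was 0.860 (0.923 and 0.616 for the 2 heated mice), beside 0.457 in wild type, with 2 called, and 0.646 in R6/2 mice. Osmr, the oncostatin M receptor, had 14.5 and 20.6 CPM in the controls and 53.8 and 41.2 after heat (1.44, adjusted p = 0.055 in edgeR, 0.00038 in DESeq2). Il1r1, the interleukin-1 receptor, had 11.6 and 13.0 CPM against 35.2 and 26.0 (1.32; adjusted p = 0.055 in edgeR, 0.00057 in DESeq2). Both were also higher in wild type, by 1.09 and 1.15, the second of which was called. Serpina3n, a secreted protease inhibitor of the acute phase, had 1.79 and 3.92 CPM against 22.5 and 17.2 (2.81, beside 1.77 in wild type).

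The chemokine Ccl2, which recruits monocytes, had 0.119 and 0.567 CPM in the Hsf1-/- controls and 14.1 and 2.19 after heat (log2 fold change 4.597; adjusted p = 0.054 in edgeR, 4.4e-05 in DESeq2). In wild type it had 0.495 and 0.485 CPM against 0.522 and 0.208 (-0.40), and the difference between the genotypes, 5.00, was not called (edgeR adjusted p = 0.36). Heat shock 1 carried most of the Hsf1-/- value. Cxcl1, a neutrophil chemokine, gave 3.03 in Hsf1-/- and -0.51 in wild type, at levels below 3 CPM. Nfkbia, the inhibitor that NF-kB induces against itself, had 19.4 and 15.5 CPM against 34.4 and 39.8 (1.08, wild type 2.03 and called). Stat3 gave 0.57 and Socs3 0.24, with Socs3 at 8.48 and 32.4 CPM in the controls. Socs1, another feedback inhibitor of cytokine receptors, was lower: 4.06 and 14.3 CPM in the controls against 0.467 and 0.755 (-3.90; adjusted p = 0.12 in edgeR, 0.00044 in DESeq2).

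Markers of leukocytes were also higher after heat. On a list of 19 leukocyte genes, 17 were higher, 9 of them and 1 lower gene at an unadjusted p below 0.05. The median was 0.652, beside 0.149 in wild type and 0.133 in R6/2 mice. The complement genes C1qa, C1qb and C1qc, made by tissue macrophages, gave 0.86, 0.87 and 0.70. C1qa had 12.5 and 10.3 CPM in the controls and 22.2 and 19.2 after heat. Ptprc (CD45), Csf1r and Lyz2 gave 0.25, -0.11 and 0.07, and Adgre1 (F4/80) gave -1.02. Cd3e was listed at 0 in both controls, at 3.27 CPM in heat shock 1 and at 0.199 in heat shock 2. The 12 leukocyte markers used as a check summed to 74.21 and 85.78 CPM in the controls and to 95.98 and 102.5 after heat; 10 of 12 were higher, and 2 were at 0 in each control. The part of these cells in the cytokine values was not tested. In whole muscle, more cells of a type and more RNA per cell cannot be told apart.

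**Figure D4:**
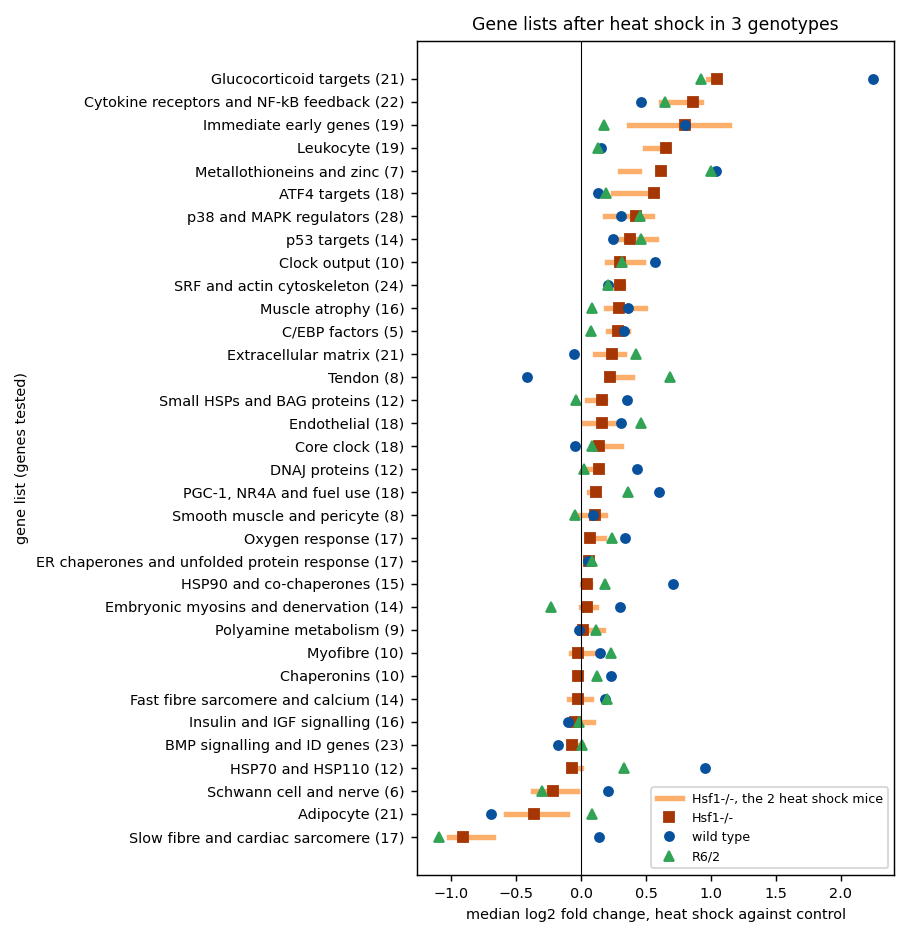
Median log2 fold change after heat shock of each gene list (number of genes tested in parentheses), for Hsf1-/- (squares), wild type (circles) and R6/2 mice (triangles). The bar joins the medians of the 2 heated Hsf1-/- mice taken singly against the mean of the controls, and can lie to one side of the square; the glucocorticoid list is at 1.04 in Hsf1-/- and 2.25 in wild type.

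Signalling and growth arrest lists leaned the same way with smaller values. Some of their members were also on lists described above, such as Map3k6, Errfi1, Cdkn1a and Btg2. The study had named themes of MAP kinase, clock, endoplasmic reticulum, matrix and sarcomere genes from these libraries. It had also named oncostatin M signalling, the response to oxygen, adipogenesis, p53 and the glucocorticoid receptor NR3C1. The lists on these themes are therefore not independent evidence of a direction. Of 28 regulators of p38 and other MAP kinases 24 were higher and 7 had an unadjusted p below 0.05. The median was 0.424 (0.542 and 0.185 for heat shock 1 and 2), beside 0.303 in wild type. Gadd45b, an activator of p38 signalling, had 21.5 and 25.3 CPM against 55.2 and 55.2 (1.24; adjusted p = 0.18 in edgeR, 0.025 in DESeq2). The heated mice were alike and at more than the level of either control. Map3k6 gave 2.01, and the phosphatase genes Dusp7 and Dusp8 gave 0.92 and 0.89. Of 14 p53 targets 12 were higher and 5 had an unadjusted p below 0.05. Their median was 0.378 (0.579 and 0.236 for heat shock 1 and 2). Among them Sesn1, a brake on mTORC1, had 37.4 and 26.9 CPM against 140 and 44.3 (1.52), and heat shock 1 was much the higher. Of 18 targets of ATF4, the factor of the amino acid and integrated stress response, 17 were higher and 7 had an unadjusted p below 0.05. Their median was 0.564 (0.534 and 0.246 for heat shock 1 and 2), beside 0.126 in wild type. Slc7a5, the large neutral amino acid transporter, had 0.398 and 0.662 CPM against 2.53 and 2.50 (2.25; adjusted p = 0.054 in edgeR, 0.00092 in DESeq2), and rose by 2.08 in wild type. Egr1, Ccl2, Slc7a5 and Stat3 also overlap other genes in the annotation.

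Of 16 genes linked to muscle atrophy 15 were higher, 6 at an unadjusted p below 0.05. Their median was 0.290 (0.488 and 0.195 for heat shock 1 and 2). Trim63, the ubiquitin ligase MuRF1, had 324 and 247 CPM in the controls and 730 and 531 after heat (1.14; adjusted p = 0.23 in edgeR, 0.05 in DESeq2), and rose by 2.18 in wild type. Foxo1, which drives that ligase in fasted muscle, had 17.0 and 16.2 CPM against 36.9 and 39.5 (1.21; wild type 2.46, called). Groups did not overlap in either gene. Of 17 genes of the oxygen response 11 were higher and 4 had an unadjusted p below 0.05 (median 0.067). Hif1a had 27.0 and 24.1 CPM against 34.2 and 31.3 (0.36, edgeR adjusted p = 0.4).

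The clock lists were mixed. Of 18 core clock genes 11 were higher, 4 at an unadjusted p below 0.05, with a median of 0.137. Of 10 clock output genes 8 were higher and 4 had such a p (median 0.298). For heat shock 1 and 2 singly the medians were 0.31 and 0.095 (core) and 0.475 and 0.199 (output). Nfil3, a repressor of clock output, had 69.6 and 60.5 CPM in the controls and 345 and 150 after heat (1.93; adjusted p = 0.089 in edgeR, 0.0072 in DESeq2), beside 1.86 in wild type. Arntl (BMAL1) had 11.6 and 9.55 CPM against 27.3 and 16.0 (1.03). Per1 had 98.7 and 100 CPM against 168 and 161 (0.72), while Nr1d1 (REV-ERBalpha), with 260 and 237 against 323 and 200, and Clock gave 0.07 and -0.17. Nfil3, Arntl and Per1 were higher in both heated mice, and Nr1d1 overlapped.

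Of 24 genes of SRF and the actin cytoskeleton 21 were higher, 7 of them and 1 lower gene at an unadjusted p below 0.05 (median 0.297). Ankrd1, a mechanosensitive nuclear ankyrin protein, had 4.14 and 11.1 CPM against 110 and 22.3, with heat shock 1 far above the rest (3.13, edgeR adjusted p = 0.52). Rhob, a stress-induced small GTPase, had 77.5 and 98.4 CPM against 167 and 166 (0.92; adjusted p = 0.26 in edgeR, 0.086 in DESeq2). Of 21 extracellular matrix genes 19 were higher and 3 had an unadjusted p below 0.05, with a median of 0.239 beside -0.053 in wild type. Thbs1, thrombospondin, had 7.84 and 14.2 CPM against 39.8 and 28.7 (1.64; adjusted p = 0.2 in edgeR, 0.029 in DESeq2), and the collagen cross-linking enzyme Lox gave 0.83. Serpinh1 (HSP47), the collagen chaperone, gave 0.10, with 72.4 and 68.5 CPM against 80.8 and 69.7, and rose by 1.84 in wild type.

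Several lists gave medians near 0. Of 17 endoplasmic reticulum chaperones and unfolded protein response genes 11 were higher, 2 at an unadjusted p below 0.05 (median 0.063), Herpud1 (0.37) and Xbp1 (0.43). Of 14 fast fibre sarcomere and calcium genes 6 were higher and 0 had such a p (median -0.024). The lists of BMP signalling and ID genes (23 tested), insulin and IGF signalling (16) and polyamine metabolism (9) had medians of -0.069, -0.048 and 0.015. Of 14 embryonic myosin and denervation genes 7 were higher (median 0.044). None of the 5 genes tested on the heat shock factor list was called. That list includes Hsf1 itself and Hsbp1, which encodes a heat shock factor binding protein. Hsf2 had 20.3 and 16.7 CPM in the controls and 21.4 and 18.9 after heat (0.12, interval -0.32 to 0.56).

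Slow fibre genes were lower in both heated Hsf1-/- mice. Of 17 slow fibre and cardiac sarcomere genes tested, 17 were lower, 5 at an unadjusted p below 0.05, and in 12 both heated mice lay below both controls (21.6% of all genes did). The median was -0.912 (-0.680 and -1.02 for heat shock 1 and 2), beside 0.136 in wild type and -1.10 in R6/2 mice. Tpm3, the slow tropomyosin, had 33.4 and 32.2 CPM in the controls and 11.4 and 4.17 after heat (-2.07; adjusted p = 0.18 in edgeR, 0.049 in DESeq2), and it has 1 near-identical copy. Tnnt1, slow troponin T, had 46.4 and 45.7 CPM against 13.1 and 7.91 (-2.13), and Myh7, the slow myosin, 142 and 244 against 42.7 and 15.9 (-2.72; edgeR adjusted p = 0.68). The heated mice were clearly below the controls in each. The Hsf1-/- controls, with a sum of 405 and 536.7 CPM over 6 slow fibre markers, were also above the 166.8 and 213.3 CPM of the wild type controls, whereas the heated Hsf1-/- mice had 156.5 and 89.51. The share of slow fibres in each piece of muscle was not tested.

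Fat and blood markers also differed between the mice. Of 21 adipocyte genes 17 were lower, 1 at an unadjusted p below 0.05, Aqp7, the glycerol channel of fat cells, with 23.5 and 37.6 CPM in the controls and 13.1 and 14.0 after heat (-1.17; adjusted p = 0.19 in edgeR, 0.032 in DESeq2). The list median was -0.360, beside -0.695 in wild type and 0.086 in R6/2 mice, and the 8 adipocyte markers summed to 902 and 741.5 CPM against 602.4 and 699.1. The brown fat genes Ucp1 and Cidea had 54.42 and 56.19 CPM together in the controls and 6.692 and 5.125 after heat. Ucp1, the uncoupling protein of brown fat, accounted for 35.1 and 32.7 CPM against 1.95 and 0.596 (-4.73; edgeR adjusted p = 0.69). In wild type mice the same pair summed to 301.9 and 69.01 CPM in the controls and 2.76 and 199.8 after heat, a spread within groups as wide as the change in Hsf1-/- mice. Endothelial markers summed to 515.6 and 605.9 CPM against 646.6 and 506.8, and the 3 erythrocyte genes to 20.5 and 17.68 against 17.12 and 80.38. Tendon and smooth muscle markers, at 167.3 to 372.7 and 404.5 to 528.3 CPM, overlapped between heated and control mice, and Schwann cell markers summed to 144.6 and 163.5 CPM against 125.4 and 144. The part of these cells in the values above was not tested.

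Within the endothelial list of 18 genes, 12 were higher, with 2 higher and 2 lower genes at an unadjusted p below 0.05. Kdr, the main VEGF receptor, had 84.2 and 88.7 CPM in the controls and 38.1 and 41.9 after heat (-1.11, edgeR adjusted p = 0.36), and Tek, the angiopoietin receptor, had 50.9 and 61.2 against 37.0 and 35.8 (-0.62). Pecam1 had 109 and 128 CPM against 195 and 143 (0.51) and Esam 15.9 and 19.5 against 27.9 and 29.8 (0.71). None of the 4 genes overlapped between heated and control mice, and in wild type their values were -1.14, -0.66, 0.28 and 0.82, none of them called.

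**Figure D5:**
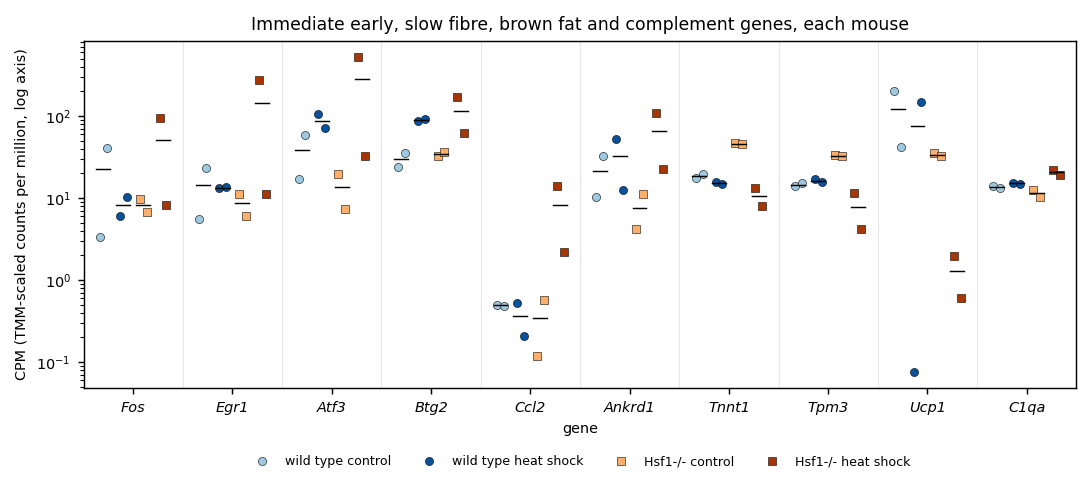
CPM of 10 genes in each mouse (log axis), drawn as wild type circles and Hsf1-/- squares with group means as bars. Fos, Egr1, Atf3, Ccl2 and Ankrd1 are highest in Hsf1-/- heat shock mouse 1, and the slow fibre genes Tnnt1 and Tpm3 and the brown fat gene Ucp1 are lower in both heated Hsf1-/- mice than in their controls.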

How the data were processed

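RNA of the quadriceps femoris muscle of 24 mice, 2 per group, was sequenced. The authors made strand-specific paired libraries, mapped the reads to mm9 with Bowtie and deposited raw counts per gene without normalization; the submitters' processing notes also name DESeq2. The program that counted reads and its annotation are not given in the sources used here. All 24 columns were used. Of 18669 genes, 18594 were matched to a symbol and 18310 to mm9 coordinates. Library totals were 22450177 to 46599238 counts. Mice of the same group differed by more than counting error (chi-square divided by its degrees of freedom, 20.25 to 115.5). The value was 20.25 in the Hsf1-/- controls and 31.7 in the Hsf1-/- heat shock mice. It was 56.59 to 115.5 in the R6/2 groups, which enter the same pooled spread.

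As in the study's methods, a gene needed 2 or more counts in 10 or more libraries. Counts were TMM-scaled and fitted as 12 groups with edgeR 4.0.16 (limma 3.58.1, R 4.3.3), with Benjamini-Hochberg adjustment within a comparison, a threshold of 0.05 and no fold cut-off. The study's own program, DESeq2 (1.42.0 here), was an alternative. The difference between genotypes was an interaction term. For single mice, 0.5 CPM was added before taking logarithms. The comparison, its gene lists and the tests were chosen with earlier results of these data known. The rule for naming took Hsf1, the HSP and heat shock factor genes, the called genes with non-overlapping groups and a mean of at least 1 CPM, up to 5 called members of each list or else the 3 with the smallest p, and up to 8 genes called for the difference; genes outside it were named after their values were seen. Alternatives were other size factors, other filters, fewer libraries, thinning to the smallest total, a replicate block, DESeq2 and leaving out each mouse. Near-identical copies (divergence up to 0.02 over at least 0.5 of the transcript) were found for 13 of the 228 genes searched. The fit was tested on simulated data.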

Additional observations from a re-analysis of the deposited data

Results flagged for a closer look

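The response to heat shock differed between Hsf1-/- and wild type mice, by a test of the difference itself, in 22 genes (edgeR adjusted p below 0.05). The log2 differences, Hsf1-/- minus wild type, were -8.179 for Hspa1b and -7.282 for Hspa1a. For other HSP70, HSP110 and J-domain genes they were -2.052 for Hspa1l, -1.693 for Hspa4l, -1.92 for Hsph1, -3.075 for Dnaja1 and -2.381 for Dnaja4. Hsp90aa1 differed by -3.787, and the cofactors of HSP90 and HSP70 by -1.442 for Stip1, -1.405 for Ahsa2, -1.25 for Unc45b and -1.964 for Bag3. The mitochondrial chaperonins differed by -1.515 for Hspd1 and -1.409 for Hspe1. Outside the chaperone lists the values were -4.343 for Tmc4, -2.45 for Nle1, -1.955 for Cnpy4, -1.765 for Tubgcp4, -1.666 for Aox1, -1.402 for Mboat7, -1.226 for Slc5a3 and -1.028 for Scamp3. All 22 were smaller in Hsf1-/- mice, and genotype, sex and age cannot be told apart in them.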

How the results depend on the processing

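The number of genes called in Hsf1-/- mice differed between settings. Beside 1 gene, edgeR called 6 with RLE size factors, 28 without the filter, 55 on the 12 heat shock libraries, 98 on only the libraries compared and 26 on thinned counts, and DESeq2 called 161 on 24 libraries and 346 on 4. Leaving out a mouse gave 0 (either control) to 28 (heat shock 2). Of these genes, 6, 27, 54, 96, 25, 151 and 330 had the same sign in wild type, and 0 to 25 with a mouse left out, beside 1. For the difference between genotypes, beside 22 genes, edgeR on only the libraries compared called 44, and DESeq2 called 40 on 24 libraries and 121 on 8; leaving out a mouse gave 10 to 16. The labels do not say that replicate numbers pair the mice, and same-numbered mice deviated together with a correlation of 0.239 in Hsf1-/- and -0.197 in wild type. A replicate block gave 9 calls in Hsf1-/-, 9 of them with the same sign in wild type, and 20 for the difference, or 21 with the wild type heat shock numbers exchanged, a pairing chosen after seeing the data.

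The share of genes called higher in wild type that were higher in Hsf1-/- mice stayed at 84.3 to 89.3% under every alternative run. With a mouse left out, Fos ranged from -0.017 (without heat shock 1) to 3.523 and Rpl30 from -4.511 (without heat shock 2) to 7.538. Of 3274 values of 234 named genes under the alternatives, 2998 kept their direction and side of the threshold, 271 crossed it upwards, 3 crossed it downwards (Ppargc1a) and 2 reversed; a change of sign with an unadjusted p of at least 0.05 in both fits was not counted as a reversal. Of 418 values of the difference for 22 genes, 95 lost the call and 0 reversed. Of 546 list medians 55 moved by more than the spread between the heated mice. With library size as the only scaling, the median of all genes was -0.041 in Hsf1-/- and 0.104 for the difference. The causes of the changed counts were not tested.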

Other observations

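Several genes outside the lists, chosen here after their values were seen, were also higher in both heated Hsf1-/- mice. Zfp36, which marks cytokine messengers for decay, had 24.3 and 19.2 CPM in the controls and 116 and 114 after heat shock (log2 fold change 2.40; adjusted p = 0.11 in edgeR, 0.0057 in DESeq2), and rose by 3.36 in wild type. Noct, a rhythmic NADP phosphatase, had 127 and 135 CPM against 290 and 278 (1.12; 0.089 and 0.0027), beside 1.40 in wild type. Hbegf, a ligand of the EGF receptor, had 17.8 and 8.98 CPM against 45.5 and 31.2 (1.51). Auts2, a chromatin-associated regulator, had 18.9 and 20.2 CPM against 87.0 and 41.7 (1.72; adjusted p = 0.051 in edgeR, 7.9e-06 in DESeq2), and Trp63, a p53 family member, had 6.61 and 2.51 against 17.4 and 22.6 (2.12; 0.055 and 0.00013). In wild type Auts2 and Trp63 gave 0.88 and 1.10, neither of them called.

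Lower in both heated Hsf1-/- mice were Rev3l, the catalytic subunit of DNA polymerase zeta, with 109 and 84.9 CPM against 51.3 and 52.5 (-0.90; adjusted p = 0.066 in edgeR, 0.0018 in DESeq2), and Cxxc5, a zinc finger protein, with 26.1 and 29.5 against 14.4 and 11.8 (-1.09; wild type -1.97, called). Some genes called in wild type had smaller values in Hsf1-/- mice without a called difference. Hmox1, the haem oxygenase, had 9.08 and 8.70 CPM against 12.5 and 11.7 (0.45; wild type 1.59), and Clu, the extracellular chaperone clusterin, had 10.7 and 31.1 against 12.5 and 28.8 (-0.01; wild type 2.59).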
